A study of Canis lupus familiaris with 20 samples.

Results

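Type I collagen and the chaperone that folds it were followed through co-culture of canine macrophages with canine mammary cancer cells. These are 3 of the 1045 genes named on the array. All probes of SERPINH1, COL1A1 and COL1A2 were taken, found by matching the transcript accession of each probe to a gene symbol: 13 of 43603 probes, of which 3 were SERPINH1, 4 were COL1A1 and 6 were COL1A2. The probes of 1 gene carried the same accession, which is an annotation. Their sequences were not used here, so whether they bind the same transcript was not tested.

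The study grew 5 dog mammary tumour lines, the simple carcinoma line CMT-U27, the spindle-cell line CMT-U309, the anaplastic line P114 and the adenocarcinoma lines CMT-W1 and CMT-W2, alone or under macrophages for at least 72 h. The macrophages came from CD64-positive blood monocytes of healthy dogs. Before co-culture the cancer cells were stained with the tracker dye CMTMR, and afterwards a flow sorter parted stained cancer cells from unstained macrophages. The mono-cultures were scraped off and not sorted, so co-culture cannot be told apart from detachment and sorting in any ratio. Each sorted population was hybridised against its own mono-culture, on a pair of 2-colour arrays with the dyes exchanged, so that each cell type had 10 arrays in 5 pairs, 1 pair for each line. A pair was counted as 1 replicate, and each line was 1 culture, so the spread is that between lines. How many macrophage mono-cultures or dogs stood behind the 5 macrophage pairs was not given in the sources used here. The p-values measure only the spread between these samples. In sorted bulk RNA, fewer cells of a type and less RNA per cell cannot be told apart.

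Type I collagen is the main fibrous protein of connective tissue and of the stroma around carcinomas. Its triple helix is built from alpha1 chains, encoded by COL1A1, and an alpha2 chain, encoded by COL1A2, and fibroblasts and other mesenchymal cells are its usual source. SERPINH1, also called HSP47, is a collagen-binding chaperone of the endoplasmic reticulum that holds the helix during folding, and cells that make much collagen hold much SERPINH1. Macrophages are better known for taking up and degrading collagen.

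Of the 20 arrays, 1 stood apart. It was that of the CMT-U309 cancer cell pair in which Cy5 marked the co-culture, and it had 9870 spots with an outlier mark, against a median of 16 over all arrays, and 96.3% of its spots were well above background in the co-culture channel. Over the 13 probes and all arrays, 7 of 360 spots had an outlier mark and were left out, none was saturated, and every probe had a value in every pair. Ratios are log2 of co-culture over mono-culture, so that 1 is a doubling. A probe counts as measured in a co-culture where it was well above background in either culture on both arrays. The cell type labels of the mono-cultures were checked against marker genes. In mono-cultured macrophages all 10 macrophage marker genes with a probe were well above background on all 10 arrays. Of the 5 epithelial marker genes 3 were so in mono-cultured macrophages, and 3 in mono-cultured cancer lines. OCLN, a tight-junction protein, was well above background on no mono-cultured macrophage array. In mono-cultured cancer lines 1 of the 10 macrophage genes was well above background on all arrays. In the sorted co-cultures 8 of the 10 were so in both cell types, and their summed log2 levels overlapped, at 14.1 to 18.9 in cancer cells and 15.9 to 18.1 in macrophages, so these markers do not part the sorted populations.

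SERPINH1 was raised in co-cultured macrophages by 1 of its 3 probes. By probe A_11_P0000039283 the log2 ratio was 6.47 in macrophages grown with CMT-U27, 5.25 with CMT-U309, 5.95 with P114, 5.50 with CMT-W1 and 4.28 with CMT-W2. All 5 co-cultures were high, and the lowest was 19.4-fold by the deposited ratios. The mean was 5.49 ± 0.82 (SD, n = 5), a 44.9-fold rise (limma, adjusted p = 5.3e-05). It was higher in 5 of 5 co-cultures and passed the test under all 17 alternatives, at ratios of 3.86 to 5.79 and adjusted p of 3.6e-08 to 0.0060. With normexp background correction and loess the 5 co-cultures gave 4.33, 5.04, 4.73, 2.50 and 2.71 in the same order. With CMT-W1 the mono-culture was well above background on only 1 array of the pair.

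The other probes of SERPINH1 did not show this rise. Probe A_11_P0000029183 gave -0.81, -0.10, -0.99, -0.56 and -1.09 in macrophages in the same order, and its mean was -0.71 ± 0.39 (SD, n = 5, limma adjusted p = 0.040). That call was lost without CMT-U27 (adjusted p = 0.10), without P114 (0.12) or without CMT-W2 (0.13), and with normexp background correction and median centring the mean was -0.31 (0.42). Probe A_11_P160103 gave a mean of -0.01 ± 0.53 (SD, n = 5, adjusted p = 0.98), with a range from -0.50 to 0.77. Both of these probes were well above background in every culture on all arrays.

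COL1A2 was raised in macrophages by 3 of its 6 probes, and in every co-culture but that with CMT-W1. By probe A_11_P051236, which had 5 spots on each array, the log2 ratio was 3.88 with CMT-U27, 5.71 with CMT-U309, 5.09 with P114, 0.22 with CMT-W1 and 4.71 with CMT-W2. CMT-W1 stood well below the other 4. The mean was 3.92 ± 2.17 (SD, n = 5), a 15.2-fold rise (limma, adjusted p = 0.0032), and without CMT-W1 it was 4.85. Probe A_11_P201543 gave 3.74, 6.45, 5.95, 0.15 and 4.95 in the same order, with a mean of 4.25 ± 2.51 (SD, n = 5, limma adjusted p = 0.0040). Tested with the spread of each probe alone, by the methods' t-test, neither passed (adjusted p = 0.20 and 0.16).

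Probe A_11_P0000019905 of COL1A2 was dimmer and gave 3.43, 4.91, 6.05 and 4.53 with CMT-U27, CMT-U309, P114 and CMT-W2. With CMT-W1 it was well above background in neither culture. In mono-culture it was well above background on the CMT-U309 arrays only, so with CMT-U27, P114 and CMT-W2 it entered through the co-culture, where it was high, and its ratios there are lower bounds. Its measured mean over those 4 co-cultures was 4.73 ± 1.08 (SD, n = 4, limma adjusted p = 0.00028), and with all 5 co-cultures in the fit it was 3.78 (adjusted p = 0.037). With normexp background correction in place of the deposited ratios its rise was 2.06 with loess and 2.26 with median centring, and neither passed the test (adjusted p = 0.078 and 0.099).

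The other 3 COL1A2 probes did not pass the test in macrophages. Probe A_11_P145878 gave a mean of 0.60 ± 1.39 (SD, n = 5, adjusted p = 0.33), A_11_P147118 a mean of 1.18 ± 3.12 (SD, n = 5, adjusted p = 0.36) and A_11_P147268 a mean of 1.25 ± 1.96 (SD, n = 5, adjusted p = 0.15). Their highest ratio was in each case with CMT-U309, at 2.87, 5.06 and 4.46, while the other 4 co-cultures lay between -3.29 and 2.77.

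COL1A1 was raised in macrophages by 1 of its 4 probes, in the 3 co-cultures where that probe was measured. Probe A_11_P050631 gave 6.38 with CMT-U309, 2.82 with P114 and 3.76 with CMT-W1, a mean of 4.32 ± 1.84 (SD, n = 3, limma adjusted p = 0.0036). In mono-culture it was well above background with CMT-U309 only, so with P114 and CMT-W1 it was measured through the co-culture, where it was high, and those ratios are lower bounds. In the macrophages with CMT-U27 and CMT-W2 it was not measured, at 2.21 and 0.36, and with these co-cultures included the mean was 3.11 and did not pass (adjusted p = 0.056), so the call rests on which co-cultures were measured. Leaving out CMT-U309, P114 or CMT-W1 left too few measured co-cultures for a test, and normexp with loess gave 2.26 (adjusted p = 0.25). The brightest COL1A1 probe, A_11_P147113, gave -0.21 with CMT-U27, 2.95 with CMT-U309, 0.34 with P114, -0.54 with CMT-W1 and -0.71 with CMT-W2, so that CMT-U309 alone was high. The 3 COL1A1 probes apart from A_11_P050631 had means of -0.11 ± 1.5 (A_11_P0000019813), 0.37 ± 1.5 (A_11_P147113) and -0.39 ± 2.04 (A_11_P147258), each SD with n = 5, and passed no test (adjusted p from 0.58 to 0.88).

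In all, 5 of 13 probes were higher and 1 was lower in co-cultured macrophages, where 2 of the 5, A_11_P0000019905 and A_11_P050631, had passed the filter on dim signal mainly through the co-culture. Over all 30090 probes tested in macrophages 47.7% passed the threshold, 21.9% higher and 25.8% lower, so a change in either direction was common there. The median ratio was 1.18 over the 13 probes and -0.12 over all probes tested.

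**Figure D1:**
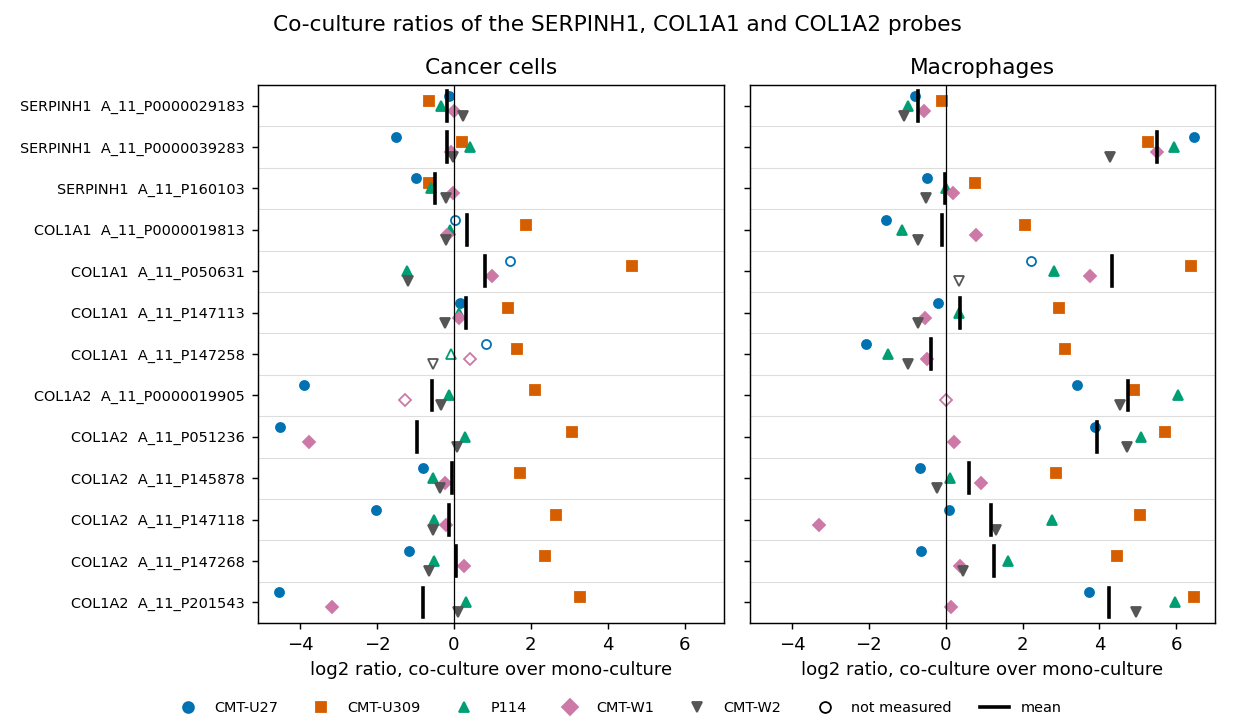
Log2 co-culture to mono-culture ratio of each of the 13 probes in cancer cells (left) and macrophages (right); symbols are the 5 co-cultures, open symbols were not measured, and black bars are the mean of the measured co-cultures, drawn where there were 3 or more. In macrophages all 5 points of SERPINH1 probe A_11_P0000039283 lay between 4.28 and 6.47. CMT-U309 lay furthest to the right for 10 of 10 collagen probes in cancer cells and for 9 of 10 in macrophages.

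In cancer cells no probe of the 3 genes passed the test. Of the 13 probes 12 were tested, since COL1A1 probe A_11_P147258 was measured with CMT-U309 only, and 0 passed with limma, also at an unadjusted p under 0.05. Over all 28648 probes tested in cancer cells 12.7% passed, 6.67% higher and 6.06% lower. The single alternative that called a member was a fit of 10 arrays with a dye term, by which SERPINH1 probe A_11_P160103 was lower (log2 ratio -0.49, adjusted p = 0.024). The methods' t-test called 0. The median ratio was -0.15 over the 12 probes and -0.01 over all probes tested.

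SERPINH1 probe A_11_P0000039283 gave -1.5 in CMT-U27, 0.21 in CMT-U309, 0.43 in P114, -0.07 in CMT-W1 and -0.02 in CMT-W2 cancer cells. CMT-U27 was low and the other 4 lay near 0, so that the mean of -0.19 ± 0.76 (SD, n = 5, adjusted p = 0.70) turned to 0.14 without it. The other SERPINH1 probes lay between -0.98 and 0.22 in all 5 lines, with means of -0.18 (A_11_P0000029183) and -0.49 (A_11_P160103).

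COL1A2 ratios had opposite signs in different cancer lines by its probes with the widest range. By probe A_11_P051236 the log2 ratio was -4.52 in CMT-U27, 3.07 in CMT-U309, 0.30 in P114, -3.78 in CMT-W1 and 0.07 in CMT-W2, and by probe A_11_P201543 it was -4.55, 3.29, 0.31, -3.16 and 0.11. The lines CMT-U27 and CMT-W1 were low, CMT-U309 was high and P114 and CMT-W2 lay near 0, and the dye-swap arrays of each pair gave the same order. The SD over the 5 lines was 3.14 by the first probe and 3.1 by the second, larger than either mean (-0.97 and -0.80). Since each line was 1 pair, the difference between lines was not tested. In CMT-W1 both probes were not well above background on either co-culture array, so the ratio there is a bound, and with normexp and loess it was -0.82 and -0.73. The other COL1A2 probes measured in CMT-W1 gave -0.23 (A_11_P145878), -0.22 (A_11_P147118) and 0.26 (A_11_P147268), so the low value of CMT-W1 was seen with 2 probes and the deposited background correction. In CMT-U27 all 6 COL1A2 probes were below 0, from -4.55 to -0.81, and the 2 probes were well above background.

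Co-cultured CMT-U27 cancer cells also held the most RNA typical of macrophages. Probes at least 16-fold brighter in macrophages than in cancer lines in mono-culture, chosen on the other 4 lines, reached a median of 81.7% of the macrophage level there (871 probes), against 5.31% to 19.3% in the other co-cultured lines. The macrophage level may come from the same mono-culture that was used to choose these probes. Macrophage marker genes rose in cancer cells in 9 of 9 tested, beside 6.67% of all probes. Of these C5AR1, CD163 and ADGRE1 were well above background on 4 of 10 mono-culture arrays, so they entered partly through the co-culture. The summed log2 level of the macrophage marker genes was 10.3 to 14.5 in mono-cultured and 14.1 to 18.9 in co-cultured cancer cells. The part of this in the SERPINH1 and COL1A2 values of CMT-U27 was not tested.

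With CMT-U309 the collagen probes were high in both populations. All 10 COL1A1 and COL1A2 probes had their highest cancer cell ratio in CMT-U309, and 9 of 10 had their highest macrophage ratio with CMT-U309, the exception being COL1A2 probe A_11_P0000019905, which was highest with P114. Over 25656 probes with a value in all pairs, CMT-U309 was highest in 22.0% in cancer cells, in 16.9% in macrophages and in 7.74% in both. The largest ratio of the 3 genes in cancer cells was that of COL1A1 probe A_11_P050631 in CMT-U309, at 4.63, a 24.7-fold rise, and in macrophages with CMT-U309 it was 6.38, or 83.2-fold. In the other cancer lines this probe gave -1.21 in P114, 0.98 in CMT-W1 and -1.20 in CMT-W2. The remaining COL1A1 probes gave 1.40 to 1.87 in CMT-U309 cancer cells and 2.05 to 3.1 in the macrophages sorted from them. Without CMT-U309, the mean cancer cell ratio turned from 0.80 to -0.48 for COL1A1 probe A_11_P050631 and from 0.35 to -0.16 for A_11_P0000019813. SERPINH1 probe A_11_P0000039283 was not raised in CMT-U309 cancer cells, at 0.21.

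The responses of the cell types differed for SERPINH1 and COL1A2, by 4 of the 13 probes. The ratio in macrophages minus that in cancer cells was 5.68 for SERPINH1 probe A_11_P0000039283 (limma, n = 5 and 5, adjusted p = 1.7e-05). For the COL1A2 probes it was 4.49 by A_11_P0000019905 (adjusted p = 0.014), 4.89 by A_11_P051236 (adjusted p = 0.022) and 5.05 by A_11_P201543 (adjusted p = 0.023). With the line as a replicate block, COL1A1 probe A_11_P050631, at a difference of 2.17, passed as well (adjusted p = 0.013, against 0.20 without the block), and so did COL1A2 probe A_11_P147268 at 1.20 (0.049 against 0.35). In the fit without the block, 31% of all 30805 probes tested differed and 14.5% were higher in macrophages. The 4 of 13 called by that fit were near the share of all probes in either direction. The counts with the block are given with the alternatives below.

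The difference for SERPINH1 held when any 1 line was left out, at 5.11 to 6.03. For COL1A2 probes A_11_P051236 and A_11_P201543 it was lost without CMT-U27 (adjusted p = 0.083 and 0.078), without P114 (0.056 and 0.064) or without CMT-W2 (0.062 and 0.067), and for A_11_P0000019905 without CMT-W2 (0.053). On the single slide that held both cell types, macrophages with CMT-U27 minus CMT-W1 cancer cells gave 6.54 for the SERPINH1 probe. It gave 7.67, 6.90 and 4.69 for the COL1A2 probes A_11_P051236, A_11_P201543 and A_11_P0000019905. These COL1A2 values hold CMT-W1 ratios of -3.78, -3.16 and -1.27. The first 2 probes were not well above background in co-cultured CMT-W1, and A_11_P0000019905 was so in neither culture, so the differences are not exact. The other probes of the 3 genes ran from -2.48 (COL1A1 A_11_P147258) to 1.23 (COL1A1 A_11_P050631) on that slide. With slide as a fixed block that slide alone carried the comparison, and 0 probes of the array passed with limma, against 4183 at an unadjusted p under 0.05.

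In mono-culture the same SERPINH1 and COL1A2 probes were far lower in macrophages than in the cancer lines. Levels are log2 normalised signals and are compared only within a probe. They come from single channels of different arrays. All cancer cell pairs were scanned on the same day. The macrophage pairs, except that with CMT-U27, were on other slides and scanned on another day. Cell type therefore cannot be fully told apart from slide and scan day in these levels. By SERPINH1 probe A_11_P0000039283 mono-cultured CMT-U27 stood at 12.71, CMT-U309 at 15.02, P114 at 14.31, CMT-W1 at 11.92 and CMT-W2 at 14.16, while mono-cultured macrophages ranged from 5.49 to 9.79. The groups did not overlap, and the lines were 79.6-fold higher (difference -6.31 as macrophages minus lines, limma adjusted p = 0.00017). The order was CMT-U309, P114, CMT-W2, CMT-U27 and CMT-W1, in which P114 and CMT-W2 differed by less than the 0.36 between the dye-swap arrays of CMT-W2.

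By COL1A2 probe A_11_P051236 mono-cultured CMT-U27 stood at 13.63, CMT-U309 at 15.12, P114 at 15.66, CMT-W1 at 10.01 and CMT-W2 at 15.09, and mono-cultured macrophages at 6.46 to 12.79. CMT-W1 was the lowest line, the neighbours P114 and CMT-U309, and CMT-U309 and CMT-W2, lay closer than the 0.71 between the dye-swap arrays of CMT-U309, and the macrophage value on the CMT-U309 arrays exceeded the level of CMT-W1. The lines were 40.5-fold higher on average (adjusted p = 0.010). COL1A2 probes A_11_P201543, A_11_P0000019905 and A_11_P147268 were also lower in macrophages, by differences of -5.55 (adjusted p = 0.0056), -5.58 (0.0092) and -1.52 (0.019). For A_11_P0000019905 the macrophages were well above background on 2 of 10 arrays, so its difference is a lower bound in size. COL1A1 probe A_11_P050631 did not pass, at 4.34 to 10.58 in the lines and 4.0 to 9.47 in macrophages (difference -2.95, adjusted p = 0.095). In all 5 of 12 tested probes were lower in mono-cultured macrophages and none was higher. Over all 27374 probes 35.2% differed and 14.4% were lower.

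Without CMT-W2 only SERPINH1 probe A_11_P0000039283 and COL1A2 probe A_11_P201543 of these 5 passed. The macrophage mono-culture may have been 1 culture. Averaged to 1 sample, it left 0 of the 12 probes past the limma test, with 4 at an unadjusted p under 0.05, and the SERPINH1 difference had an adjusted p of 0.073.

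The mono-cultured macrophage level of some of these probes was not the same on all arrays. By COL1A2 probe A_11_P051236 it was 6.59 on the CMT-U27 arrays, 12.79 on the CMT-U309 arrays, 9.51 on the P114 arrays, 6.46 on the CMT-W1 arrays and 7.46 on the CMT-W2 arrays. This is the order of the co-cultured macrophages on the same arrays, which stood at 10.48, 18.50, 14.60, 6.68 and 12.18. COL1A1 probe A_11_P050631 was well above background in mono-cultured macrophages on the CMT-U309 arrays alone, at 9.47, and lay between 4.0 and 4.18 on the others. The SD over the 5 mono-culture measurements was 2.66 by COL1A2 probe A_11_P051236, 2.40 by the COL1A1 probe and 1.72 by SERPINH1 probe A_11_P0000039283. Over 23479 probes well above background in all 5, the median SD was 0.17, and at least 99.9% of them had a smaller SD than each of these probes. Some other probes of the same genes varied like a typical probe, with an SD of 0.17 for SERPINH1 A_11_P0000029183, 0.16 for A_11_P160103 and 0.20 for COL1A2 A_11_P145878. The rest varied more. The SD was 2.58, 2.37, 1.86 and 0.52 for COL1A2 A_11_P0000019905, A_11_P201543, A_11_P147118 and A_11_P147268. It was 0.58, 0.41 and 0.26 for COL1A1 A_11_P147113, A_11_P147258 and A_11_P0000019813. A ratio of the variable probes is therefore taken against a mono-culture value that differed between co-cultures, and the part of this in the ratios was not tested.

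**Figure D2:**
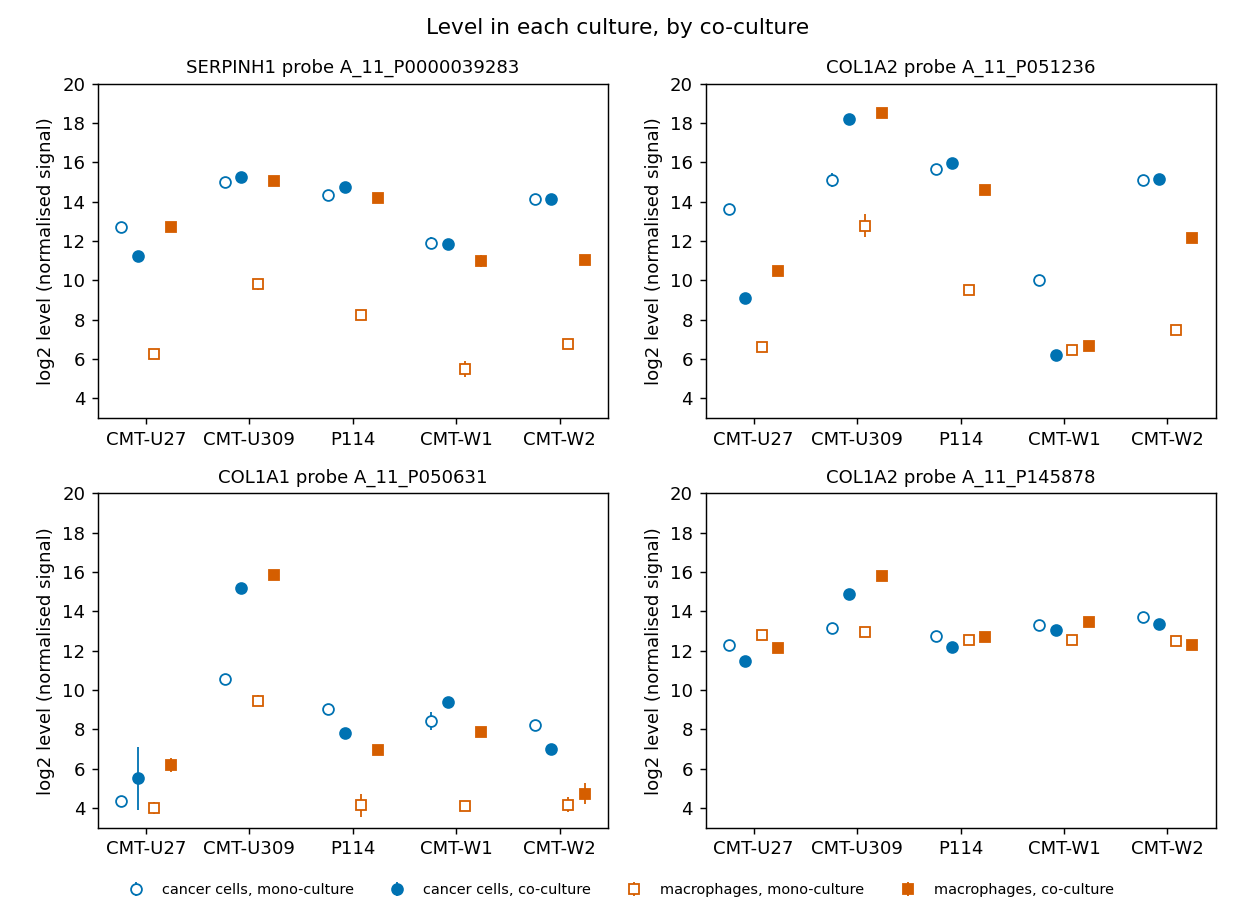
Log2 level of 4 probes in mono-culture (open) and co-culture (filled) of cancer cells (circles) and macrophages (squares), by co-culture; a point is the mean of the dye-swap arrays and the bar spans their difference. For SERPINH1 probe A_11_P0000039283 and COL1A2 probe A_11_P051236 the filled squares moved up towards the circles of the same line, except for COL1A2 with CMT-W1, while COL1A2 probe A_11_P145878 was at a similar level in both cell types.

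Co-cultured macrophages reached the SERPINH1 level of the cancer line with some lines and not with others. By SERPINH1 probe A_11_P0000039283 the macrophages stood at 101% of mono-cultured CMT-U27, 101% of CMT-U309, 92.2% of P114, 52.6% of CMT-W1 and 11.6% of CMT-W2. By COL1A2 probe A_11_P051236 they stood at 11.3%, 1042%, 47.9%, 9.96% and 13.3% of the mono-cultured line in the same order. Against the co-cultured line, COL1A2 in macrophages stood at 258% of CMT-U27, 124% of CMT-U309, 39.0% of P114 and 12.6% of CMT-W2, while co-cultured CMT-W1 was not well above background and gives no exact ratio. The co-cultured levels by this probe ran in the order CMT-U309, P114, CMT-W2, CMT-U27 and CMT-W1 in both cell types.

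Many other probes typical of cancer cells moved the same way in the sorted macrophages. Probes at least 16-fold brighter in cancer lines than in macrophages in mono-culture were chosen on the other 4 lines and read in the line left out, and the 13 probes described here were kept out. The macrophage mono-cultures may have been the same culture throughout, so leaving out a line may not leave out its macrophage mono-culture. Part of the low mono-cultured macrophage level and of the ratios given next may therefore follow from the choice. There were 297 to 399 such probes for each line. In mono-cultured macrophages their median level was 2.56% to 5.77% of the line, and in co-cultured macrophages it was 109% with CMT-U27, 91.7% with CMT-U309, 91.5% with P114, 56.6% with CMT-W1 and 30.5% with CMT-W2. Their median log2 ratio in macrophages was 4.75, 3.96, 4.35, 3.27 and 3.42 in that order. SERPINH1 probe A_11_P0000039283 lay close to this median level in 4 co-cultures and below it with CMT-W2, while COL1A2 probe A_11_P051236 lay far above it with CMT-U309 and below it with the other 4 lines.

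Macrophage marker genes fell in the sorted macrophages in 10 of 10 tested, beside 25.8% of all probes. The log2 ratio was -5.45 for the scavenger receptor CD163 (limma, adjusted p = 0.0023) and -5.73 for the complement receptor C5AR1 (0.00058). It was -3.97 for FCGR1A, which encodes CD64 (0.00068), and -2.92 for the lysosomal protease CTSS (0.014). Their summed log2 level was 19.4 to 19.8 in mono-cultured and 15.9 to 18.1 in co-cultured macrophages. None of these 10 genes was below background throughout. The tight-junction gene TJP1 rose in macrophages by 1.74 (adjusted p = 0.012). OCLN passed at 4.12 (n = 3, adjusted p = 0.0048) and the mesenchymal transcription factor SNAI2 at 3.04 (0.0013). Both ratios are lower bounds where the mono-culture was dim, since OCLN was well above background there on 0 of 10 arrays and SNAI2 on 4. OCLN thus entered the test through the co-culture, where it was high. Of the other epithelial genes, ERBB2 fell (-0.74, adjusted p = 0.047), and CLDN3 (-0.23, 0.69) and MUC1 (0.60, 0.40) did not pass. The other mesenchymal genes tested, PDGFRB, S100A4 and COL6A3, did not pass by their brightest probe (adjusted p from 0.31 to 0.84). The part of cancer cell RNA in the macrophage values of SERPINH1, COL1A1 and COL1A2 was not tested.

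**Figure D3:**
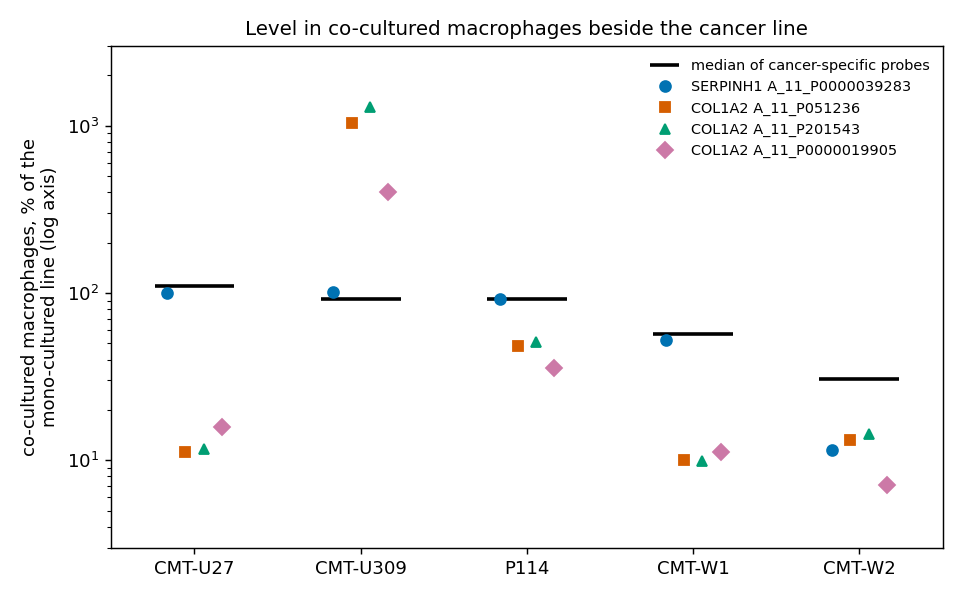
Level of SERPINH1 probe A_11_P0000039283 and 3 COL1A2 probes in co-cultured macrophages as a percent of the mono-cultured cancer line of the same co-culture (log axis); black bars are the median of 297 to 399 cancer-specific probes chosen on the other 4 lines. The SERPINH1 points lay near the bars except with CMT-W2, and the COL1A2 points lay above the bar with CMT-U309 and below it elsewhere.

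Probes of 1 gene gave different answers. In macrophages with CMT-U27 the COL1A2 probes spread from -0.66 to 3.88, and the SERPINH1 probes from -0.81 to 6.47. Of the probes that did not rise in macrophages, some stood at like levels in both cell types in mono-culture and some did not. COL1A2 probe A_11_P145878 stood at 12.31 to 13.74 in the lines and 12.49 to 12.95 in macrophages, and SERPINH1 probe A_11_P0000029183 at 10.03 to 11.13 and 10.82 to 11.24. COL1A2 probe A_11_P147268 was 2.86-fold higher in the lines, as given above, and A_11_P147118 was 2.72-fold higher without passing the test (adjusted p = 0.22). The mean of A_11_P147118 holds a macrophage value of 13.07 with CMT-W1, where the dye-swap arrays of the mono-culture differed by 9.01. Without CMT-W1 its difference, macrophages minus lines, was -2.49 (limma, adjusted p = 0.014). Taking the brightest probe of each gene on the macrophage arrays in place of every probe left 1 call, the fall of SERPINH1 by A_11_P0000029183, so the direction given for SERPINH1 rests on the probe.

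Between the dye-swap arrays, the macrophage ratio of SERPINH1 probe A_11_P0000039283 differed most with CMT-W1, at 4.77 and 6.24 and were close in the other 4. The largest disagreement among the 13 probes was COL1A2 probe A_11_P147118 in macrophages with CMT-W1, at 0.45 with the co-culture in Cy5 and -7.04 with it in Cy3, where the mono-culture level differed by 9.01 between the arrays. The mean of this probe over the co-cultures was 1.18 with that pair and 2.30 without it (adjusted p = 0.36 and 0.044).

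**Figure D4:**
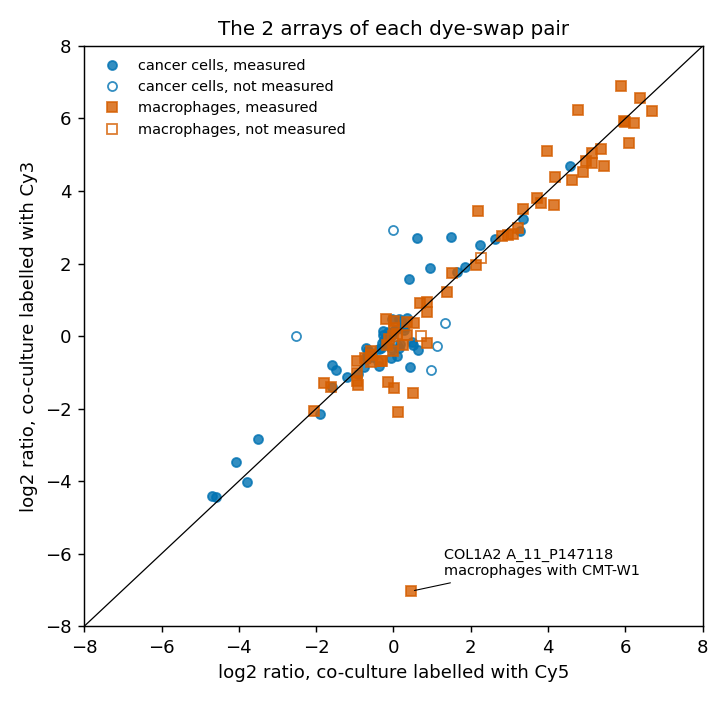
Log2 ratio of each of the 13 probes in each co-culture on the array with the co-culture in Cy5 (x axis) and in Cy3 (y axis); circles are cancer cells, squares macrophages, open symbols were not measured, and the line marks equal values. The farthest from the line was COL1A2 probe A_11_P147118 in macrophages with CMT-W1, at 0.45 and -7.04, and 5 other points lay over 2 log2 units apart on the axes, 4 of them COL1A1 probes.

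Among the collagen chains on the array, COL7A1 and COL9A2 were higher in macrophages and none passed in cancer cells. Of 32 collagen chain genes listed, 8 had a probe and 7 were tested in macrophages by their brightest probe, of which 2 were higher and none lower, a share near the 21.9% of all probes, with a median ratio of 0.60 against -0.12 over all probes. COL7A1, the anchoring-fibril collagen of basement membranes, rose by 1.28 ± 0.86 (SD, n = 5, adjusted p = 0.016), and a dimmer probe of it by 1.27 (adjusted p = 0.030). COL9A2, a chain of a collagen found on cartilage fibrils, passed at 2.82 ± 0.56 (SD, n = 3, adjusted p = 0.0016), which is a lower bound where its mono-culture was dim, as it was well above background there on 2 of 10 arrays and on 8 in co-culture. COL4A4, a basement-membrane collagen, gave 0.65 (adjusted p = 0.34), COL6A3, a microfibrillar collagen, -0.34 (0.31) and COL2A1, the main collagen of cartilage, -0.56 (0.19). In cancer cells 6 genes were tested and 0 passed with limma, where 12.7% of all probes did. COL7A1 gave 0.70 there (adjusted p = 0.18), COL4A4 0.23 (0.69), COL6A3 -0.48 (0.24) and COL2A1 -0.07 (0.88). Of 32 genes of collagen folding, cross-linking and processing only SERPINH1 had a named probe, so its partners were not measured here.

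Among other matrix genes, 1 of 3 tested was higher in macrophages and 1 lower, beside 21.9% and 25.8% of all probes. The small proteoglycan BGN rose by 3.0 ± 0.66 (SD, n = 5, adjusted p = 0.00022) and differed between the cell types (adjusted p = 0.0011), from a mono-culture level well above background on 4 of 10 macrophage arrays. Tenascin, TNC, fell in macrophages (log2 ratio -0.84, adjusted p = 0.016) and in cancer cells (-1.18, adjusted p = 0.028), the only one of 4 tested there.

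Genes of collagen degradation passed in both cell types. In cancer cells 4 of 7 were higher and none lower, beside 6.67% and 6.06% of all probes, with a median of 1.72. In macrophages 3 of 8 were higher and 3 lower, beside 21.9% and 25.8%, with a median of -0.88. The lysosomal collagenase CTSK rose in cancer cells by 4.94 (adjusted p = 0.0012) and fell in macrophages (-3.11, adjusted p = 0.013), and CTSS rose in cancer cells by 5.92 (0.00046). The stromelysin MMP3 passed in macrophages at 6.71 ± 2.34 (SD, n = 4, adjusted p = 0.00081), a lower bound where its mono-culture was dim, as it was well above background on 1 of 10 mono-culture and 8 of 10 co-culture arrays. Of 3 chaperone and heat-shock genes tested, HSP90B1, an abundant chaperone of the endoplasmic reticulum, rose in macrophages by 1.52 (adjusted p = 0.0046) and gave 1.07 in cancer cells (0.11), while none of the 3 passed in cancer cells. None of the 11 collagen receptors listed had a named probe.

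Markers of further cell types are few on the array, and their counts stand beside the 47.7% of all probes called in macrophages and 12.7% in cancer cells. Of fibroblast and mesenchymal markers 1 of 4 was higher in macrophages, SNAI2 above, and in cancer cells 1 of 5 was lower, the growth factor receptor PDGFRB (log2 ratio -1.25, adjusted p = 0.049). Of epithelial markers CLDN3 was lower in cancer cells (-1.65, adjusted p = 0.045), the only one of 5 there, and in macrophages 2 of 5 were higher and ERBB2 was lower (-0.74, adjusted p = 0.047). The endothelial marker VWF was lower in macrophages (-0.66, adjusted p = 0.047). Of 3 lymphocyte markers tested in macrophages CD4 and CD8A were lower (-1.26 and -0.64, adjusted p = 0.022 and 0.046) and MS4A1 was higher (2.52, adjusted p = 0.049).

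The genes most like each of the 3 in their 10 ratios were found among 505 named genes measured in all pairs, by Pearson correlation of the brightest probe. For SERPINH1 probe A_11_P0000039283 these were AK1 (r = 0.98), CAV1 (0.98), MYC (0.97), APEX1 (0.95) and ANXA2 (0.93). The 10 ratios of SERPINH1 fell into 2 clusters, cancer cells near 0 and macrophages above 4, so r over them mainly describes that gap, and within macrophages r was 0.87 for AK1 and 0.28 for CAV1. The brightest COL1A1 and COL1A2 probes, A_11_P147113 and A_11_P145878, were among the nearest of each other, at 0.82, with 0.92 within cancer cells and 0.86 within macrophages, and COL1A2 was also near COL7A1 (0.79). Both patterns had their high point in CMT-U309. The points share arrays and dye-swap pairs, and the r values are given as a description of 10 pairs.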

How the data were processed

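The authors deposited the scanner output of 20 arrays of a 4 x 44K canine design, made with Agilent Feature Extraction 10.7.3.1, whose intensity columns hold linear spot signals. Its deposited log10 ratio of Cy5 over Cy3 is background corrected and dye normalised, and the deposited value table equals it, turned to co-culture over mono-culture, within 5.0e-06. Other deposited columns, of 0 or 1, mark outlier and saturated spots and spots well above background. The design names the build canFam2, and the gene table used for symbols is of UU_Cfam_GSD_1.0, so no coordinates are given; 1648 probes had a symbol.

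Ratios were turned to log2, outlier spots removed, spots of a probe and then both arrays of a pair averaged. A probe was tested where measured in at least 3 of 5 co-cultures. limma 3.58.1 (R 4.3.3) fitted each cell type and their difference over all probes, with Benjamini-Hochberg adjustment and a threshold of 0.05. Levels came from the processed signals by Aquantile. The fits were tested on simulated data. Array number limits the precision. Populations sorted from 1 co-culture share the line and are paired by design; deviations from the group means correlated at 0.44 for CMT-U309, 0.26 for CMT-W1, 0.18 for P114, 0.06 for CMT-W2 and 0.04 for CMT-U27, against -0.36 to 0.19 between co-cultures. All probes of the 3 genes were named, with collagen genes and at most 4 called genes of each other list; 1 gene of the collagen degradation list is counted but not reported here. The labels call the paired arrays biological replicates and the methods a dye swap. The genes and lists were chosen with earlier results of these data known.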

Additional observations from a re-analysis of the deposited data

Results flagged for a closer look

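Among 45 sets of 4 or 5 co-cultures tested for a value far from the rest, 5 had one, where the rule alone flags about 1 in 20 independent sets. The sets are not independent, since probes of 1 gene share the same samples. SERPINH1 probe A_11_P0000039283 was lowest in CMT-U27 cancer cells, at -1.5, with the nearest at -0.07. The other 4 were all CMT-U309. COL1A1 probe A_11_P0000019813 was highest there in cancer cells, at 1.87. COL1A1 probe A_11_P147113 was highest in cancer cells at 1.40 and in macrophages at 2.95. COL1A2 probe A_11_P145878 was highest in cancer cells at 1.71.

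The response to co-culture differed between macrophages and cancer cells, by the limma test of the difference itself, for SERPINH1 probe A_11_P0000039283 (5.68 higher in macrophages) and for COL1A2 probes A_11_P0000019905 (4.49), A_11_P051236 (4.89) and A_11_P201543 (5.05).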

How the results depend on the processing

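Of 752 values of the member probes under alternatives, 653 kept their direction and side of the threshold, 40 lost a call, 12 gained one and 47 changed sign. None of the values that changed sign had passed the test, and the cause was not tested where none is given. Normexp with median centring moved the median of all probes by 0.20 in cancer cells and 0.15 in macrophages. Dim probes limit the COL1A1 values. The alternative that kept only values well above background was chosen after seeing the data and gave 8855 probes that differed between the cell types, 4 of them members.

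The number of probes called in cancer cells was 73 with normexp and loess, 1888 with no filter, 2264 on Cy5 arrays alone, 11341 with 10 arrays and a dye term, 9146 with slide as a random block, 8 by the methods' t-test and 982 to 2737 with 1 co-culture left out. With median centring it was 7794 in macrophages and 4949 for the difference between cell types, which had 0 with slide as a fixed block. Between the mono-cultures it was 207 with macrophages as 1 sample and 6054 to 11176 with 1 line left out.

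Of the member probes in macrophages, 3 passed with median centring, 1 with 1 probe per gene and 2 by the t-test. For the difference, 1 passed with normexp and loess, 1 with centring, 1 with 1 probe per gene, 0 with slide as a fixed block and 1 to 5 with 1 co-culture left out. In mono-culture 0 passed with macrophages as 1 sample and 2 to 6 with 1 line left out. With the line as a replicate block, which pairs the populations of 1 co-culture, 10192 probes and 6 members differed.

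Sign changes in cancer cells with normexp and loess were COL1A2 A_11_P0000019905 (0.12), A_11_P145878 (0.0052) and A_11_P147118 (0.12). With centring they were A_11_P0000019905 (0.75), A_11_P051236 (0.36), A_11_P145878 (0.74), A_11_P147118 (0.65), A_11_P201543 (0.47), and SERPINH1 A_11_P0000029183 (0.39), A_11_P0000039283 (0.63) and A_11_P160103 (0.12). On Cy5 arrays alone A_11_P147268 gave -0.0066. With 1 line left out, values ran from -0.16 to 0.53 for A_11_P0000019813, -1.46 to 0.55 for A_11_P0000019905, -0.35 to 0.14 for A_11_P0000039283, -0.48 to 1.47 for A_11_P050631, -0.49 to 0.14 for A_11_P145878, -0.83 to 0.34 for A_11_P147118, -0.52 to 0.36 for A_11_P147268 and -1.82 to 0.14 for A_11_P201543.

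In macrophages normexp with loess and centring gave 0.17 and 0.20 for A_11_P0000019813, 0.22 and 0.27 for A_11_P147258 and 0.12 and 0.21 for A_11_P160103. For A_11_P160103 Cy5 arrays gave 0.11 and slide as a random block 0.019, and for A_11_P147113 Cy3 arrays gave -0.15. With 1 co-culture left out the ranges were -0.65 to 0.25 for A_11_P0000019813, -0.28 to 0.64 for A_11_P147113, -1.26 to 0.027 for A_11_P147258 and -0.20 to 0.11 for A_11_P160103. For the difference, A_11_P0000019813 gave 0.0063 with loess and 0.13 with centring. Slide as a fixed block gave -0.43 for A_11_P145878, -0.34 for A_11_P147113, -0.91 for A_11_P147268 and -0.47 for A_11_P160103. Cy3 arrays gave -0.26 for A_11_P147113, which ran from -0.33 to 0.22 with 1 co-culture left out. In mono-culture A_11_P147258 ran from -0.0065 to 0.64.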
